A study of Mus musculus with 10 samples.

Results

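The genes described here build and run the primary cilium. They are the subunits of the BBSome and its assembly factors, the small GTPases and regulators around it, the trains and motors of intraflagellar transport (IFT), and proteins of the transition zone and the centriolar satellites. Membership was set by gene symbol alone, from a list of 43 symbols, and all 43 had a row among the 14623 genes of the count table. A UMI (unique molecular identifier, the tag that marks one captured mRNA molecule) was found for 42 of them. Bbs5, a BBSome subunit, had none in any cell.

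The primary cilium is a single, non-motile antenna that grows from the mother centriole of most resting mesenchymal cells and concentrates receptors such as those of the Hedgehog pathway. IFT-B trains with kinesin-2 motors carry cargo outwards, IFT-A trains with dynein-2 carry it back, and the BBSome rides on these trains and takes membrane proteins out of the cilium. In fat, adipocyte precursor cells are ciliated, while circulating lymphocytes generally lack a primary cilium.

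The stromal vascular fraction (SVF), meaning the cells that remain when adipocytes are removed from collagenase-digested fat, came from inguinal white adipose tissue (iWAT) of lean mice aged 7 weeks. A single Bbs8 KO mouse (Bbs8-/-, KO for short, lacking the BBSome subunit BBS8 in the whole body) was compared with a single Bbs8 WT mouse (Bbs8+/+, WT), and neither had received a treatment according to the labels. Transcriptomes were captured by Seq-Well S3, which pairs single cells with barcoded beads in the wells of an array. With 1 mouse per genotype no test between genotypes was possible, and every interval given here is a 95% interval that covers counting error only.

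The KO mouse contributed 8985 cells with 3144195 UMIs and the WT mouse 1929 cells with 715989 UMIs, at medians of 251 and 278 UMIs per cell. The cells carried 10 set codes, 5 per genotype, which could not be tied to single labelled samples and are treated as technical barcode sets. Their numbers (KO5 and KO6, WT3 and WT4) were not explained. By count of sets, KO5 and KO6 match the KO samples titled p1 and p2, and WT3 and WT4 the WT samples titled p1 and p2, but no label ties them. According to the methods each sample was run on a pair of arrays, so the numbers may stand for arrays, and were they animals the spread over sets would also hold differences between mice. KO sets held 1635 to 2005 cells and WT sets 196 to 768. A total of 36 of 10847 barcodes occurred in more than 1 set. A property of the table bears on every rare gene: across all genes and sets, 10161 pairs of a gene and a set had 3 cells with a UMI, but only 4489 had 2 and 762 had 1. Such a step is what a minimum of 3 cells per gene and set, set before some cells were removed, would give, and no source used here states one. A gene listed at 0 in a set may therefore have been present in a few cells, and no limit is given for a count of 0 by itself. The members were listed at 0 in 119 of 215 pairs of member and set in WT and in 25 of 215 in KO, and the part of the smaller WT sets in this was not tested.

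Promoter sequence is shown for the members that carry the palindrome GTNNCCNNGGNNAC, a form of the X-box bound by RFX factors, the transcription factors best known for switching on ciliary genes. RefSeq promoters (GRCm38.p6, from 250 bases before to 50 after each start) were found for 37 of the 43 members. The motif, which reads the same on both strands, lay in 6 of these 37 members (16.2%) and in 583 of 27025 genes in all (2.16%). In Bbs1, Bbs4 and Tctn1 it lay past the annotated start. In Bbs7, Ift22 and Ift57 it lay before it, and those stretches are printed 5′ to 3′ on the strand of the gene with the motif in capitals.
Bbs7 (BBSome subunit, chr3:36613478-36613540, minus strand): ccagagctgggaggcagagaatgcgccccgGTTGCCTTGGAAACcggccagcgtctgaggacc
Ift22 (IFT-B, chr5:136908057-136908149, plus strand): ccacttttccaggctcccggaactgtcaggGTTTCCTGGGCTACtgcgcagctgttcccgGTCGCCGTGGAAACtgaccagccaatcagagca
Ift57 (IFT-B, chr16:49699177-49699232, plus strand): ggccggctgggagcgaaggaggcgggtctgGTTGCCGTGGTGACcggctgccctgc
Ift22 held the motif at 2 positions that do not overlap, starting 63 and 33 bases before its RefSeq start. The motif started 121 bases before the start of Bbs7 and 87 before that of Ift57. These matches describe letters in a window, and binding was not measured.

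Scaled to all UMIs, the members summed to nearly the same level in both mice. They held 2791 UMIs in KO, which is 888 CPM (855 to 921), where CPM is the count scaled to a common total of UMIs, and 660 UMIs in WT, which is 922 CPM (853 to 995). KO sets ranged from 840 to 927 CPM and lay inside the range of the WT sets, 652 to 1246 CPM. The log2 ratio of KO over WT was -0.05 (-0.18 to 0.07) over all cells and -0.07 (-0.23 to 0.08) in stromal-like cells. Without the set WT4_p3, the highest of all, the ratio over all cells was 0.07, so the sums gave no direction under this scaling. With TMM and DESeq2 scaling, which moved all genes towards WT, it was -0.20 and -0.22, below the interval given. Pcm1, Ift20, Kif3b and Kifap3 were the only members listed in all 10 sets, and for these alone the sum was 277 CPM in KO and 356 CPM in WT, a log2 ratio of -0.36 (-0.57 to -0.16). Being listed in every small WT set picks genes by their WT values, so this ratio gave no direction either. Among the 4, Ift20 had a ratio of -0.84 with 5 CPM added to each side, against -0.31 for Kifap3, -0.24 for Pcm1 and 0.12 for Kif3b.

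**Figure D1:**
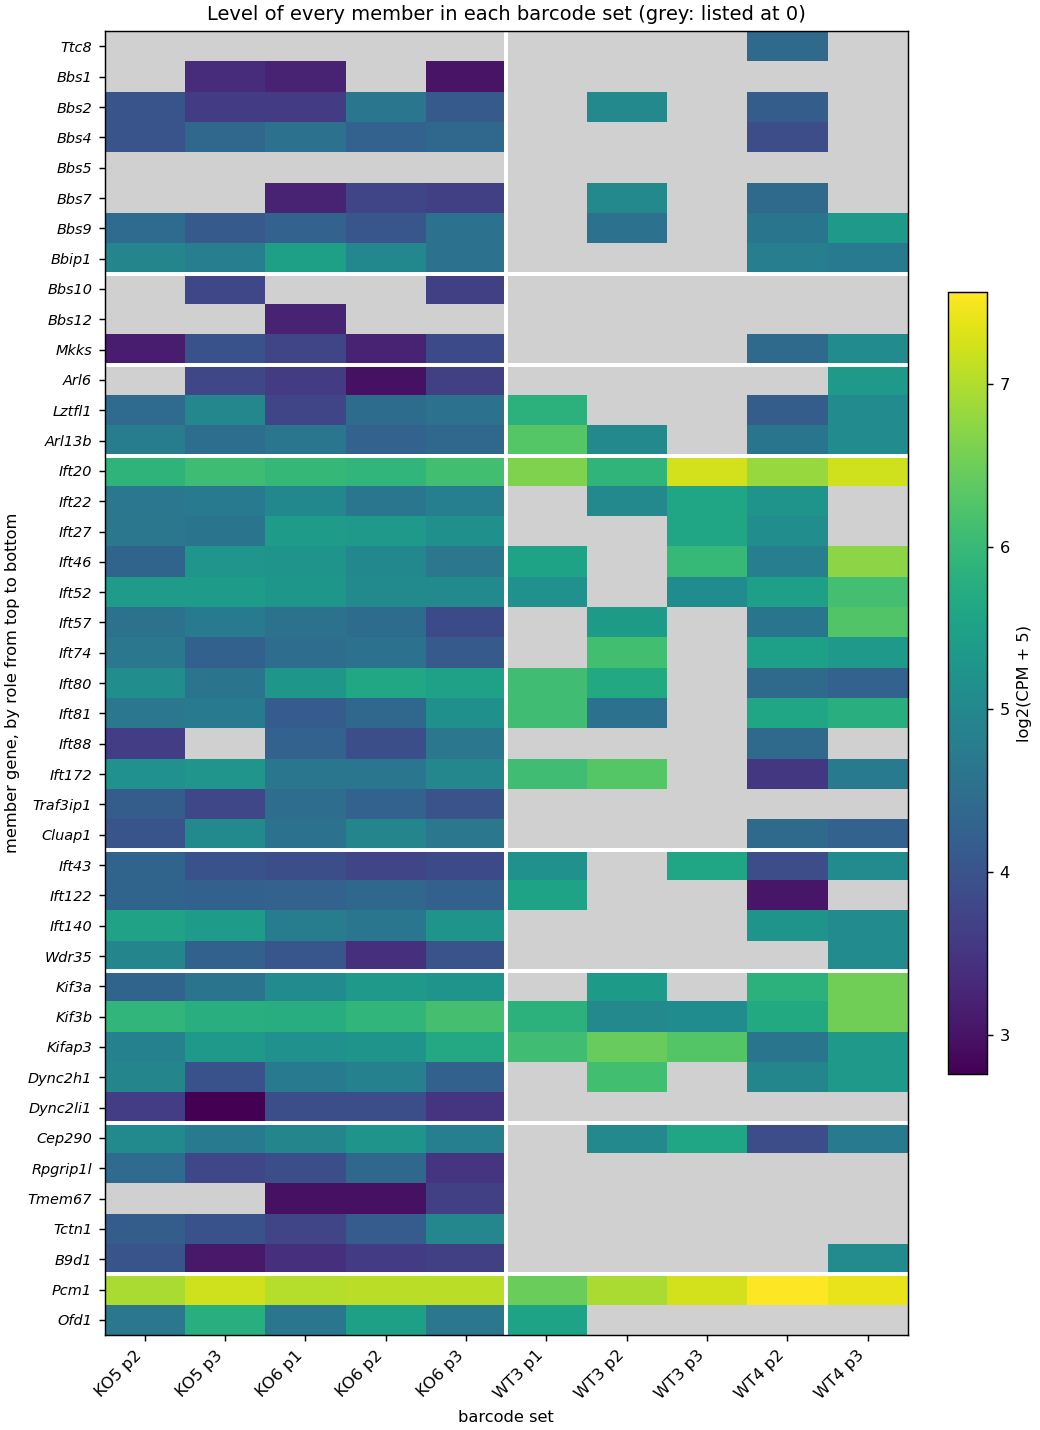
Level of each of the 43 members (rows, grouped by role from BBSome subunits at the top to centriolar satellite genes at the bottom) in the 10 barcode sets (columns), as log2(CPM + 5), with grey where the table lists 0. Grey fills 119 of the 215 WT fields and 25 of the 215 KO fields, and Pcm1 and Ift20 are the brightest rows.

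Single members were compared by the log2 ratio of CPM with 5 CPM added to each side, among those with at least 40 UMIs over both mice. This left 30 members, of which 9 were at least 1.5-fold higher in KO and 5 at least 1.5-fold lower, with a median of -0.01. All 9 higher members reached the minimum on their KO UMIs alone and had at most 12 UMIs in WT. Passing the minimum was therefore not independent of their direction. Over the 9400 genes that met the same minimum, 27.8% were higher and 10.5% lower by this measure, with a median of 0.19, so the share of members that were higher was close to the background. The count of higher members was not stable, at 5 without KO6_p1 (26.1% of all genes) and 3 with 20 CPM added in place of 5 (16.3%). The count of lower members rested on few genes: it was 3 without WT4_p3 (10.8% of all genes), 9 without WT4_p2 (12.1%) and 1 with 20 CPM added in place of 5 (6.57%), so it gave no firm difference from the background. For the 3738 of these genes listed in all 10 sets, the median was -0.05. In 2 of the 9 higher members, Tctn1 and Traf3ip1, the WT value was listed at 0 in every set. A second estimate, chosen after the data had been seen, counted cells with a UMI and treated a set with fewer than 3 such cells as unknown below 3. It could be made for 28 of the 30 members and placed 4 above and 9 below 1.5-fold, with a median of -0.16, against 21.4% and 12.8% of 9000 genes and a median of 0.11. Its interval lay below 0 for 6 members (Ift20, Ift74, Ift81, Ift57, Kif3a and Arl13b) and above 0 for Ofd1, against 13.0% of the 9000 genes with an interval below 0 and 19.0% with one above it. Tctn1, which had no estimate because its WT sets are all unknown, had a lower limit of 0.12. It passed the minimum of 40 UMIs only through KO, with 45 UMIs there, so this limit comes from a gene picked by its KO value. In GENCODE vM21 exons of Bbs4, Bbip1, Cep290, Tctn1 and Ofd1 overlap exons of a gene on the other strand (for Tctn1 that of Hvcn1, a proton channel of B cells) and those of Cluap1 overlap Gm20695 on the same strand, and how such reads were divided is not given in the sources used here.

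**Figure D2:**
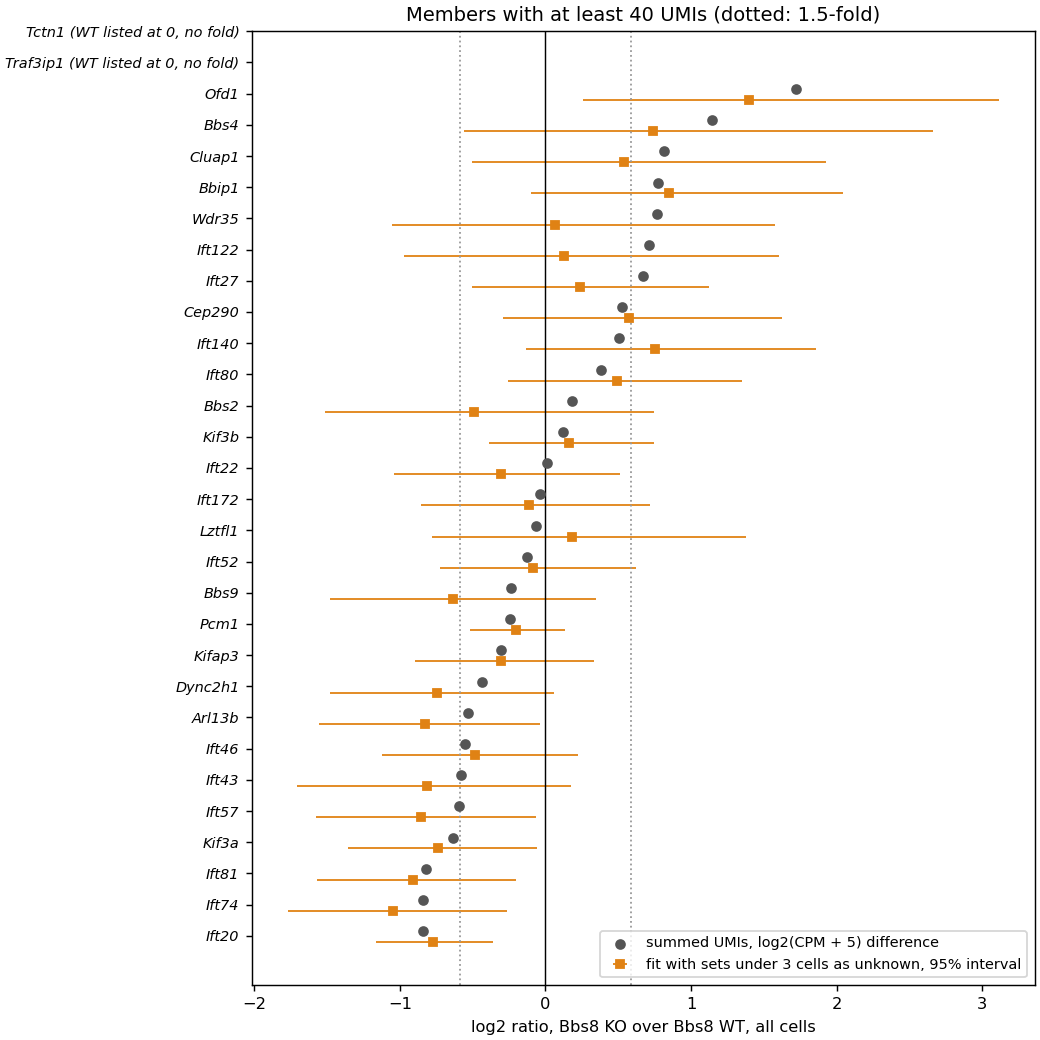
Log2 ratio of KO over WT for the 30 members with at least 40 UMIs, from summed UMIs with 5 CPM added (grey circles) and from the estimate that treats sets under 3 cells as unknown (orange squares, 95% interval). Ift20, Ift74 and Ift81 stand lowest on summed UMIs with 5 CPM added and Ift74, Ift81 and Ift57 on the second estimate, Ofd1 is highest among the members with a ratio on both, and for 21 of the 28 members with an estimate the interval crosses 0.

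The gene removed in the mutant, Ttc8 (ENSMUSG00000021013, chromosome 12, 98920574 to 98983238, plus strand; the mouse symbol of Bbs8), was listed at 0 in all 5 KO sets. In WT it had 5 UMIs in 3 cells, all in the set WT4_p2 (16.5 CPM there), and was listed at 0 in the other 4 sets. With the KO sets taken as true zeros, the upper limit of the plain log2 ratio of KO over WT was -2.01, and with sets under 3 cells as unknown, an estimate explained above, it was -0.59.

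Of the other BBSome subunits, Bbip1 had the most UMIs and was not lower in the mutant. Bbip1, the smallest subunit, had 26.0, 23.0, 40.1, 27.1 and 18.7 CPM in the KO sets and 0, 0, 0, 23.0 and 21.6 CPM in the WT sets. The WT sets that listed it lay inside the KO range, and the log2 ratio was 0.77 from summed UMIs and 0.85 (-0.10 to 2.04) from the estimate with unknown sets. Bbs4, a subunit made of tetratricopeptide repeats like Ttc8, had 11.1, 15.9, 18.6, 14.3 and 15.6 CPM in KO and 9.88 CPM in WT4_p2 alone, with 0 in the other 4 WT sets. Its ratio was 1.14 from summed UMIs and 0.74 (-0.56 to 2.66) from the second estimate. Bbs2 and Bbs9, which belong to the core of the complex, were even between the mice on the first measure (0.18 and -0.24) and had wide intervals on the second (-1.51 to 0.74 and -1.48 to 0.34). Bbs7 had 14 UMIs in KO and 8 in WT, and Bbs1, the subunit that binds Arl6, had 8 and 0. Together the 8 subunits held 76.0 CPM in KO and 64.2 CPM in WT, a log2 ratio of 0.24 (-0.22 to 0.73).

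The chaperonin-like proteins that assemble the BBSome were near the limit of the data. Mkks (BBS6) had 3.72, 10.6, 8.59, 4.28 and 9.36 CPM in the KO sets and was listed in WT only in WT4_p2 (16.5 CPM) and WT4_p3 (28.8 CPM). Bbs10 had 10 UMIs and Bbs12 3 UMIs in KO, with 0 in WT for both. No ratio is given for these.

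Among the regulators, Arl13b, the GTPase that marks the ciliary membrane and is the usual antibody target for cilia, leaned towards WT. It had 22.3, 17.7, 20.04, 14.3 and 15.6 CPM in the KO sets and 73.2, 27.6, 0, 19.8 and 28.8 CPM in the WT sets, so the groups overlapped. The log2 ratio was -0.53, and -0.82 (-1.55 to -0.04) from the second estimate. Arl6 (BBS3), which recruits the BBSome to membranes, had 17 and 5 UMIs. Lztfl1, which controls BBSome traffic, was even at 17.2 and 18.2 CPM.

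Among members with at least 40 UMIs, the largest difference towards WT on summed UMIs with 5 CPM added was that of an IFT-B gene, Ift20, while the plain log2 ratios were -1.02 for Ift74, -0.96 for Ift81 and -0.90 for Ift20. Ift20 (ENSMUSG00000001105, chromosome 11, 78536361 to 78541737, plus strand), a small subunit that also sits at the Golgi and sorts membrane cargo to the cilium, had 53.9, 61.9, 57.3, 55.6 and 64.0 CPM in the KO sets. The WT sets had 94.1, 55.1, 145, 109 and 144 CPM. All WT sets except WT3_p2 were above every KO set, and WT3_p2 lay inside the KO range on 6 UMIs. In sum Ift20 had 184 UMIs, or 58.5 CPM, in KO and 78 UMIs, or 109 CPM, in WT. The log2 ratio was -0.84, and -0.77 (-1.16 to -0.36) from the second estimate. By the number in the set code Ift20 had 58.0 CPM in KO5 and 58.8 CPM in KO6, against 91.4 CPM in WT3 and 120 CPM in WT4. Within stromal-like cells alone Ift20 had 61.2 CPM in KO and 140 CPM in WT, a log2 ratio of -1.13.

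Ift74 and Ift81 form a pair that binds tubulin, the main cargo of growing cilia, and both were lower in KO. Ift74 had 20.4, 14.2, 17.2, 18.5 and 12.5 CPM in the KO sets and 0, 64.3, 0, 39.5 and 36.0 CPM in the WT sets. The 3 WT sets that listed Ift74 were above the KO sets, but in WT3_p2 and WT4_p3 a gene just reaching 3 UMIs would be too, so their position says little. The second estimates were -1.05 (-1.77 to -0.26) for Ift74 and -0.91 (-1.57 to -0.20) for Ift81. Ift57, which joins the IFT-B core to kinesin-2, gave -0.86 (-1.58 to -0.06). Ift46 had 26.1 and 40.5 CPM over all cells and 28.6 and 63.2 CPM in stromal-like cells, with a log2 ratio of -1.02 there, while the estimate over all cells was -0.48 (-1.12 to 0.22).

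The remaining IFT-B genes did not share this direction. Ift80, Ift27 and Cluap1 (IFT38) were higher in KO by 0.38, 0.67 and 0.81, with second estimates whose intervals all crossed 0. Ift22, Ift52 and Ift172, the largest subunit, lay between -0.13 and 0.01. Ift88, a subunit without which cilia do not form, had 34 and 5 UMIs and was below the minimum. Traf3ip1 (IFT54) had 13.0, 8.84, 17.2, 14.3 and 10.9 CPM in the KO sets and was listed at 0 in all WT sets, so its ratio would depend on the 5 CPM added and no fold is given. The 13 IFT-B genes summed to 328 CPM in KO and 394 CPM in WT, a log2 ratio of -0.26 (-0.46 to -0.07). Without Ift20 it was -0.08 (-0.30 to 0.15), and without Ift81 it was -0.20 (-0.41 to 0.00), so the interval of the sum reached 0 without either gene.

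IFT-A genes were higher in KO in 3 of 4 cases on summed UMIs, and all 4 intervals of the second estimate crossed 0. Ift140 had 40.9, 37.1, 22.9, 19.97 and 32.8 CPM in the KO sets and was listed in WT only in WT4_p2 (32.9 CPM) and WT4_p3 (28.8 CPM), both inside the KO range. Its log2 ratio was 0.51, and 0.75 (-0.14 to 1.86) on the second estimate. Ift122 and Wdr35 (IFT121) were higher in KO by 0.71 and 0.77 on summed UMIs and by 0.13 (-0.97 to 1.60) and 0.06 (-1.06 to 1.58) on the second estimate. Ift43 went to -0.58 and -0.82 (-1.71 to 0.18). The sum over the 4 genes was 68.1 CPM in KO and 50.3 CPM in WT.

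Of the motors, Kif3a was lower in KO and its partner Kif3b was even. Kif3b, a motor subunit of kinesin-2, had 55.7, 49.5, 48.7, 55.6 and 65.5 CPM in the KO sets and 52.3, 27.6, 29.0, 46.1 and 86.4 CPM in the WT sets, with a log2 ratio of 0.12. Kif3a, the other motor subunit, had 27.0 and 44.7 CPM, a log2 ratio of -0.63, and -0.74 (-1.35 to -0.06) on the second estimate. Kifap3, the adaptor of kinesin-2, gave -0.31 on summed UMIs, and Dync2h1, the heavy chain of dynein-2, gave -0.43, both with second estimates whose intervals crossed 0. Dync2li1, a light intermediate chain of dynein-2, had 23 UMIs in KO and 0 in WT.

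The transition zone, the gate at the base of the cilium, gave the largest summed ratio of the 8 roles, on 16 UMIs in WT. Cep290, which links the ciliary membrane to the microtubules, had 27.9, 21.2, 25.8, 32.8 and 23.4 CPM in the KO sets and 0, 27.6, 43.5, 9.88 and 21.6 CPM in the WT sets, with every WT set that listed it at 3 UMIs. Its log2 ratio was 0.53. Tctn1, a tectonic of the membrane gate, had 13.0, 10.6, 8.59, 12.8 and 26.5 CPM in KO and 0 in all WT sets. Rpgrip1l, a scaffold of the gate, had 36 UMIs and Tmem67, a receptor-like membrane protein, 9 UMIs in KO, and both were also listed at 0 in WT. B9d1 had 22 and 4 UMIs. The sums of 62.0 and 22.3 CPM therefore differ largely through 3 genes that the WT sets listed at 0, and how much of the difference the size of those sets gives was not tested.

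The centriolar satellite genes, which sit around the base of the cilium, held the most abundant member, Pcm1, and Ofd1. Like the other members past 1.5-fold higher in KO, Ofd1 passed the minimum of 40 UMIs only through KO, with 94 UMIs there. Pcm1 (ENSMUSG00000031592, chromosome 8, 41239752 to 41332344, plus strand), the scaffold of the satellites, had 119, 143, 126, 128 and 129 CPM in the KO sets and 83.7, 119, 145, 184 and 166 CPM in the WT sets. Its log2 ratio was -0.24 over all cells and -0.50 (-0.91 to -0.11 for the plain ratio) in stromal-like cells, and the sets overlapped. Ofd1 (ENSMUSG00000040586, chromosome X, 166390033 to 166440704, minus strand), a protein of satellites and the distal centriole, had 20.4, 49.5, 20.04, 39.9 and 20.3 CPM in the KO sets. In WT it was listed in WT3_p1 alone, at 41.8 CPM from 4 UMIs, inside the KO range. The log2 ratio was 1.72, and 1.40 (0.26 to 3.12) on the second estimate. Xist was detected in all sets of both mice (578 and 418 CPM) and the Y-linked genes Ddx3y, Eif2s3y, Kdm5d and Uty were listed at 0 in both. An exon of Trappc2 on the other strand overlaps Ofd1, and its part in the value was not tested.

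**Figure D3:**
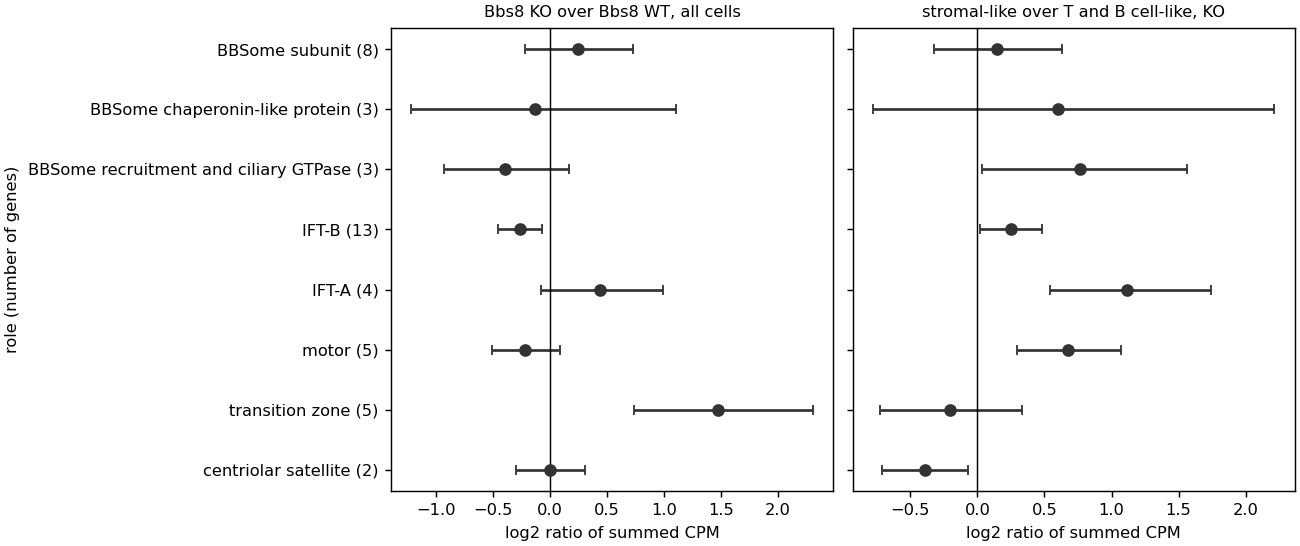
Log2 ratio of CPM summed over the genes of each role (number of genes in brackets), for KO over WT over all cells (left) and for stromal-like over T and B cell-like cells of the KO mouse (right), with exact conditional 95% intervals. On the left IFT-B is at -0.26 and the transition zone, whose WT values include 3 genes listed at 0, at 1.47, and on the right IFT-A is at 1.12 and the motors at 0.68.

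Cell classes were called from raw marker UMIs, and compared within a mouse. A minimum of 3 cells per gene and set would act over all classes of a set, and its part in a difference between classes was not tested. All 7 classes that held cells had their own markers and no marker of another class among the 10 genes that led them. The calls used these same markers, so this is no independent check of the classes. Many cells rested on few UMIs, since 602 of the 4404 stromal-like cells of KO had only 2 or 3 UMIs of the stromal list. In KO the summed members reached 950 CPM (901 to 1000) in stromal-like, 888 CPM (739 to 1057) in endothelial-like, 838 CPM (744 to 940) in T cell-like, 773 CPM (687 to 867) in B cell-like and 710 CPM (627 to 800) in myeloid-like cells. Epithelial-like cells had 1468 CPM on 14 UMIs (803 to 2464), and cells in no class 940 CPM (843 to 1046). The pericyte and smooth muscle-like cells were at 1191 CPM on 38 UMIs, with an interval (843 to 1635) that held the stromal value. Stromal-like cells were above T and B cell-like cells together by a log2 ratio of 0.24 (0.10 to 0.38) and above myeloid-like cells by 0.42 (0.23 to 0.61). The ratio over lymphocyte-like cells was 0.090 for the 4 members listed in all 10 sets.

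In the WT mouse the stromal-like cells were again above the myeloid-like and lymphocyte-like cells, with less precision, while the order among the other classes differed. Stromal-like cells held 1000 CPM (909 to 1097), T and B cell-like cells 702 CPM on 28 UMIs and myeloid-like cells 709 CPM on 76 UMIs. The log2 ratio of stromal-like over T and B cell-like cells was 0.51 (-0.04 to 1.12), or 1.40 under the TMM and DESeq2 scalings of the classes and 1.22 for the 4 members listed in all sets, and over myeloid-like cells it was 0.50 (0.14 to 0.87). Stromal-like cells were above T and B cell-like cells in all 5 KO sets, by as little as 984 against 977 CPM in KO6_p3, and above them in all 5 WT sets, where at most 17 UMIs per set lay in lymphocytes.

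**Figure D4:**
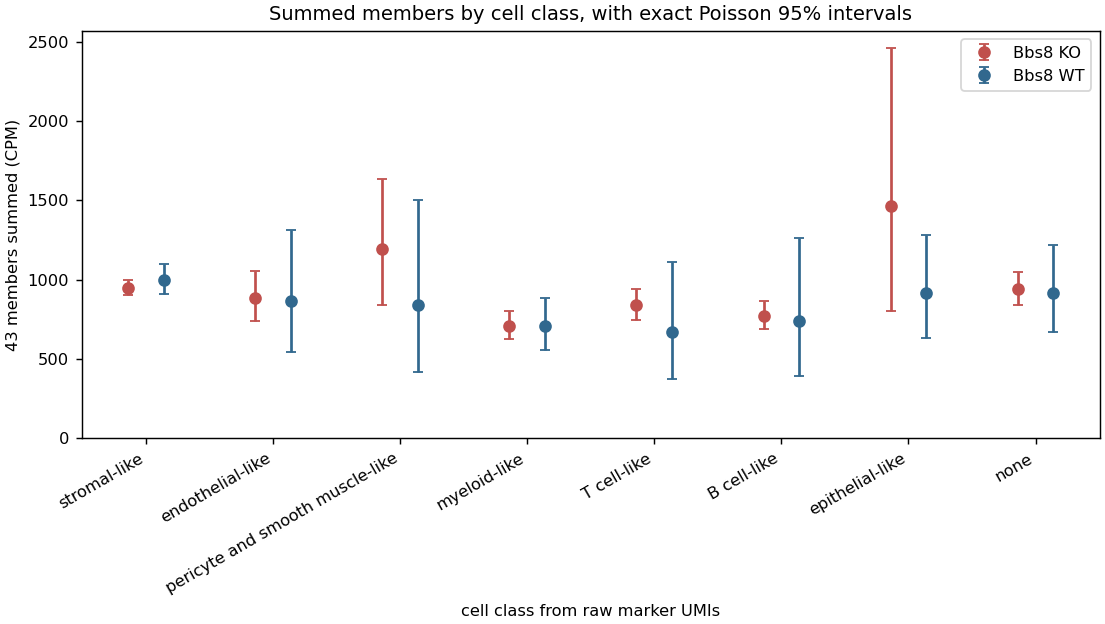
CPM summed over the 43 members in each cell class for KO (red) and WT (blue), with exact Poisson 95% intervals. Stromal-like cells sit at 950 and 1000 CPM and myeloid-like cells at 710 and 709 CPM, and the wide intervals belong to classes with few UMIs.

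Shares of cells with a UMI of any member are shallow in such sparse data. They were 23.5% of stromal-like and 21.8% of T and B cell-like cells in KO, at medians of 248 and 296 UMIs. After each cell was thinned to 150 UMIs, leaving out 257 and 55 shallower cells, they were 12.2% (11.2 to 13.2) and 10.7% (9.28 to 12.2). In WT they were 26.0% and 19.1% before thinning, and after it 12.6% (10.7 to 14.7), leaving out 16 stromal-like cells, and 5.26% (1.96 to 11.1), where 1 lymphocyte-like cell was left out. The lymphocyte share is that of a largely unciliated cell type, and what gave rise to it was not tested. The stromal share of KO stood little above it, with intervals that overlapped.

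Stromal subtypes and dividing cells did not differ beyond counting error. In KO, P1-like cells (stem-cell-like, Dpp4 and Pi16 list) had 996 CPM, P2-like cells (preadipocyte, Col15a1 and Icam1 list) 971 CPM and P3-like cells (F3 and Mmp3 list) 927 CPM. The log2 ratio of P1-like over P2-like was 0.04 (-0.18 to 0.24) in KO and 0.00 (-0.43 to 0.41) in WT. Cells with at least 2 mitotic UMIs, a stage at which the cilium is taken down, stood at 938 CPM against 885 CPM for the rest in KO (log2 ratio 0.08, -0.18 to 0.34) and at 691 against 936 CPM in WT (-0.44, -1.04 to 0.11).

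Single members were then compared between stromal-like and T and B cell-like cells. In KO, 19 members had at least 40 UMIs in these classes, of which 5 were at least 1.5-fold higher in stromal-like cells (Ift81, Kifap3, Kif3a, Dync2h1 and Ift46) and 2 at least 1.5-fold lower (Cep290 and Ofd1), again with 5 CPM added to each side. These 5 had 2 to 12 UMIs in lymphocyte-like cells. They reached the minimum mainly through the stromal-like cells, which held 1503390 UMIs of all genes against 720096. Over the 7643 genes that met the same minimum, 25.4% were higher and 28.5% lower, so the share of higher members was close to the background and the share of lower members below it. The median of the 19 was 0.16 and that of all genes -0.16 on the same scale, and the ratios of named members between classes given from here on are plain.

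**Figure D5:**
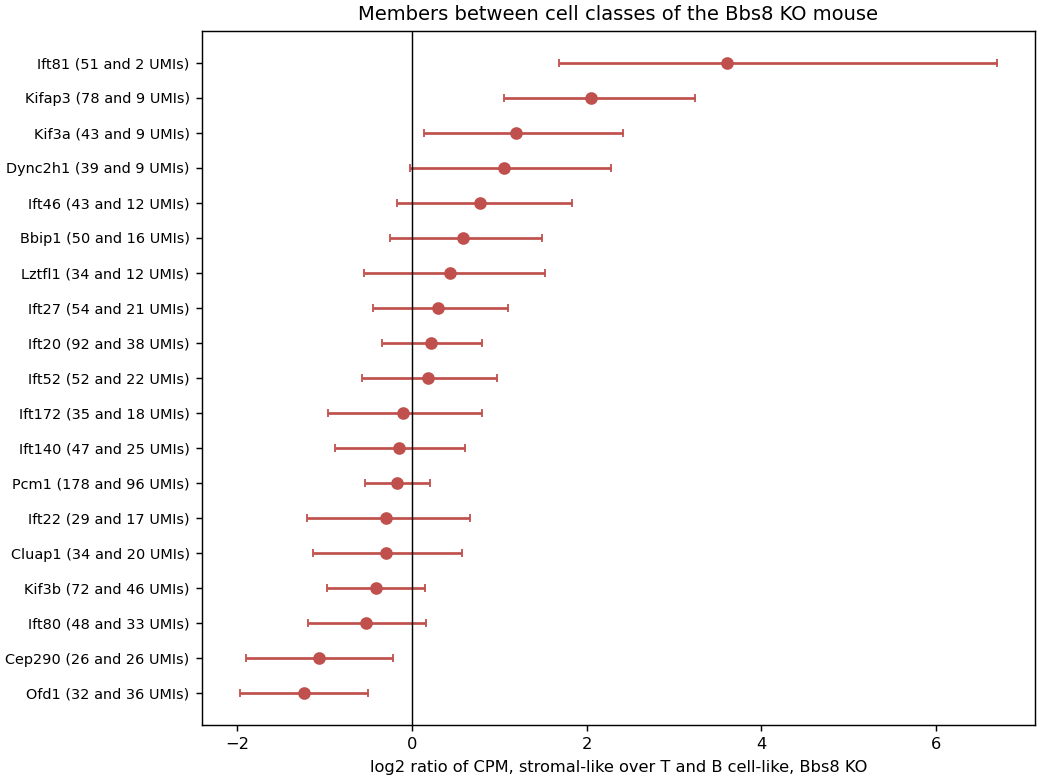
Plain log2 ratio of CPM in stromal-like over T and B cell-like cells of the KO mouse for the 19 members with at least 40 UMIs in these classes, with exact conditional 95% intervals and the UMIs of both classes beside each name. Ift81 and Kifap3 lie far to the right at 3.61 and 2.05, and Ofd1 and Cep290 to the left at -1.23 and -1.06.

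Ift81 had the highest ratio of these 19 members. It had 37.8, 40.5, 18.4, 31.8 and 42.9 CPM in the stromal-like cells of the 5 KO sets, while T and B cell-like cells had 0 in 4 sets and 14.5 CPM, from 2 UMIs, in KO6_p3. Summed, 51 against 2 UMIs gave a log2 ratio of 3.61 (1.68 to 6.69). In the WT mouse 24 of its 28 UMIs lay in stromal-like cells, which was 1.89 (0.34 to 3.87) above all other cells. The same contrast in KO was 2.21 (1.29 to 3.26), so both mice showed it.

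Kifap3 came next and its sets were less even. Stromal-like cells had 18.9, 58.9, 45.9, 50.9 and 79.7 CPM and T and B cell-like cells 32.6, 7.50, 25.9, 0 and 0 CPM, with the order turned in KO5_p2. The log2 ratio was 2.05 (1.06 to 3.24) in KO. Over all other cells it was 1.55 (0.92 to 2.22) in KO and 1.08 (-0.18 to 2.54) in WT. Its motor partner Kif3a gave 1.19 (0.14 to 2.42) against lymphocytes but 0.16 (-0.49 to 0.81) against all other cells, and Kif3b did not follow at -0.42 (-0.97 to 0.15). Dync2h1 and Ift46 gave 1.05 (-0.02 to 2.28) and 0.78 (-0.17 to 1.84), both with intervals that reached 0. Over all other cells Dync2h1 gave 0.95 (0.16 to 1.78) in KO and 0.19 (-1.24 to 1.76) in WT. Ift46 gave 0.27 (-0.39 to 0.93) in KO and 4.11 (1.51 to 9.46) in WT, where 28 UMIs lay in stromal-like cells and 1 in all others.

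Of the IFT-A genes, 3 were below the minimum and had more UMIs in stromal-like cells of KO. Ift122 had 32 UMIs in stromal-like and 0 in T and B cell-like cells, Ift43 22 and 1, and Wdr35 35 and 4, a log2 ratio of 2.07 (0.58 to 4.02) for the last. In WT, against all other cells, Ift43 went to -0.92 (-2.77 to 0.88), while Ift122 gave 1.30 (-2.04 to 6.92) and Wdr35 0.89 (-2.75 to 6.60). Ift140, the IFT-A gene with most UMIs, had 47 and 25, a log2 ratio of -0.15 (-0.88 to 0.61). Such a lean was not particular to IFT-A, since Ift57 with 31 and 3 UMIs gave 2.31 (0.63 to 4.66) and Dync2li1 with 15 and 1 gave 2.84 (0.14 to 8.24) in KO. Also below the minimum, Bbs2, Bbs4, Bbs9, Bbs12, Ift88, Traf3ip1 and Tctn1 had ratios below 0. The 4 IFT-A genes together gave 1.12 (0.54 to 1.74), and 0.73 (0.13 to 1.37) without Ift122. The 5 motor genes gave 0.68 (0.30 to 1.07), and 0.32 (-0.10 to 0.75) without Kifap3, so this sum rested on Kifap3.

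Cep290 and Ofd1 were higher in the lymphocyte-like than in the stromal-like cells of the KO mouse. For Cep290 this was not particular to lymphocytes, since myeloid-like cells had 31.7 CPM, lymphocyte-like cells 36.1 CPM and stromal-like cells 17.3 CPM. In the same order Ofd1 had 13.2, 50.0 and 21.3 CPM. Cep290 had 3.78, 22.1, 21.4, 25.4 and 12.3 CPM in stromal-like cells and 40.8, 0, 38.9, 40.8 and 57.9 CPM in T and B cell-like cells of the KO sets, with the order turned in KO5_p3. Its log2 ratio was -1.06 (-1.90 to -0.22), and in WT 2 of its 12 UMIs lay in stromal-like cells, -3.02 (-6.25 to -0.79) against all other cells, but none lay in T or B cell-like cells there. Ofd1 was lower in stromal-like cells in all 5 KO sets, with 7.57, 40.5, 15.3, 25.4 and 18.4 CPM against 32.6, 67.5, 45.4, 75.7 and 21.7 CPM, a log2 ratio of -1.23 (-1.97 to -0.50). T and B cell-like cells made up 20.8% of KO and 5.96% of WT cells, and the part of this in the Ofd1 ratio over all cells was not tested. In stromal-like cells alone Ofd1 had 32 UMIs in KO and was listed at 0 in WT. In KO the ratios of Pcm1, Ift20, Ift52 and Ift172 over T and B cell-like cells lay between -0.17 and 0.21. In WT stromal-like cells stood above all other cells for Ift20, by 1.25 (0.44 to 2.15), and below them for Ift52, by a log2 ratio of -1.38 (-2.68 to -0.15). Against all other cells KO gave 0.13 (-0.31 to 0.56) for Ift20 and 0.15 (-0.43 to 0.74) for Ift52.

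Of 78 further ciliary genes in 7 lists, 66 had a row and 37 reached 40 UMIs, with 13 higher and 2 lower by 1.5-fold on summed UMIs (27.8% and 10.5% over all genes) and a median of 0.33. On the second estimate 9 of 35 were higher and 4 lower (21.4% and 12.8% over all genes), with a median of 0.06, so the higher counts were near the background. The genes lower on both were Wdr60, an intermediate chain of dynein-2, at -0.90 (-1.71 to -0.01), and Pkd2, the polycystin channel of the ciliary membrane, at -0.59 (-0.99 to -0.16). Ssx2ip at -1.03 (-1.92 to -0.02) and Cep131 at -0.91 (-1.83 to 0.10), both of the centrosome, were lower on the second estimate alone. Higher on the second estimate alone were Rab11a, a GTPase of recycling endosomes, at 0.62 (0.19 to 1.09), and Rfx5, at 0.59 (-0.59 to 2.34). Genes past 1.5-fold on the second estimate alone are named after their values were seen. The higher genes with an interval above 0 among those past 1.5-fold on both measures were Rab3ip (Rabin8), the exchange factor that works with the BBSome on Rab8, at 1.10 (0.31 to 2.07), Rfx7 at 1.21 (0.32 to 2.33) and Cfap43, a gene of motile cilia, at 1.18 (0.19 to 2.46). In the KO mouse these 3 were lower in stromal-like than in T and B cell-like cells, by plain log2 ratios of -1.12, -1.27 and -1.39, and in stromal-like cells alone KO over WT, with 5 CPM added, was 1.02 for Rab3ip, 0.46 for Rfx7 and 0.96 for Cfap43. The part of the larger lymphocyte share of KO in their values was not tested. Rfx1 had 53 UMIs and Tulp3, an adaptor that brings receptors into the cilium, 42 UMIs in KO, and both were listed at 0 in WT, with lower limits of the second ratio of 0.28 and -0.10. Both passed the minimum of 40 UMIs only through KO, so these limits come from genes picked by their KO values. Rab3ip, Rfx7 and Cfap43, with 13, 11 and 7 UMIs in WT, also passed it through KO. Past the same fold on summed UMIs but with second estimates whose intervals crossed 0 were Hspb11 and Ttc21b of the IFT complexes, B9d2, Ahi1 and Rpgrip1 of the transition zone, and Cep164, Cep89 and Cep97 of the basal body and centriole.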

How the data were processed

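What the authors deposited is 1 table of UMI counts, unscaled integers for each gene in each cell. According to the study's methods the authors aligned reads to mm10 (GENCODE vM16) with STAR inside dropSeqPipe, which counts UMIs with the Drop-seq tools, evened out depth with downsampleBatches, and removed cells by gene number and mitochondrial share; whether the deposited counts precede the depth step is not given in the sources used here. Per the labels bcl2fastq 2.20 was used. Here the UMIs of each gene were summed per mouse, barcode set and class, as CPM of all UMIs. A cell took the class whose marker list had most raw UMIs (at least 2, no tie). Doublets were kept and no caller was run. Intervals are 95% exact Poisson, conditional or Clopper-Pearson. Ratios between mice of single genes add 5 CPM to each side, as do the counts past 1.5-fold and the medians between classes; the ratios between classes of named genes, those of sums, and the exact intervals are plain. The second estimate is a Poisson rate of cells with a UMI, relative to the UMIs of the set, with a profile-likelihood interval. No normalisation by length was made, since the UMIs are 3′ tags. Calculations used Python 3.11.15, scipy 1.17.1, and edgeR 4.0.16 and DESeq2 1.42.0 for scaling alone, and the estimators were checked on simulated data. Values in every set are given for Ttc8, for the member with most UMIs of each role and for the 6 members with the largest ratio among those with at least 40 UMIs. Of the further ciliary genes, those past 1.5-fold on either measure with at least 40 UMIs are named. Other members are named by role. The members and lists were chosen with earlier results of these data known. Overlaps were taken here from GENCODE vM21 on mm10; exons of 3 members overlap another gene on the same strand and of 13 on the other strand. Unmapped columns numbered 0.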

Additional observations from a re-analysis of the deposited data

Results flagged for a closer look

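In 32 groups of 5 barcode sets, the set farthest from the others was compared with the range of its group, and 4 groups stood past the 95% limit, which chance passes in about 1 in 20 groups whose values all vary. Tctn1 had 26.5 CPM in KO6_p3, above the other KO sets. In the other 3 groups a single WT set listed the gene and 4 did not, so that any value passes the limit and the chance rate does not apply, namely Ttc8 at 16.5 CPM in WT4_p2, Ofd1 at 41.8 CPM in WT3_p1 and Bbs4 at 9.88 CPM in WT4_p2.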

How the results depend on the processing

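Each choice was changed on its own, which gave 132 values, and 106 of them stayed within the interval, the spread or 1.5 times the count of the value in the report. The spread for the median was wide (1.00, the SD over sets), so staying within it says little. TMM and DESeq2 scaling moved all genes by -0.15 and -0.17 (log2, KO over WT). With them the summed ratio was -0.20 and -0.22 over all cells and -0.26 and -0.28 in stromal-like cells, members lower by 1.5-fold numbered 8 under both (14.8% and 15.3% of all genes), and stromal-like over lymphocyte-like cells gave 0.40 and 0.38 in KO and 1.40 under both in WT. A pseudocount of 1 CPM gave 8 lower members (12.2% of all genes), and 20 CPM gave 3 higher and 1 lower (16.3% and 6.57%). A minimum of 100 UMIs left 11 members with 1 higher and 2 lower (22.1% and 10.9% of all genes), and no minimum gave 14 higher (30.7%). Leaving out each barcode set in turn gave summed ratios of -0.10 to 0.07 over all cells and -0.12 to 0.04 in stromal-like cells, a median of -0.17 to 0.08, 5 to 10 higher and 3 to 9 lower members (26.1% to 33.6% and 10.6% to 12.1% of all genes), and class ratios of 0.15 to 0.30 in KO and 0.45 to 0.68 in WT. Without KO6_p1 there were 5 higher members, without WT4_p2 9 lower, and without WT4_p3 3 lower and a summed ratio of 0.073. Chosen after the data were seen, the 4 members listed in all sets gave -0.36 over all cells, -0.55 in stromal-like cells, and class ratios of 0.090 in KO and 1.22 in WT, and the estimate with unknown sets gave 4 higher and 9 lower members. Causes of these shifts were not tested. No paired analysis was possible because each genotype is 1 mouse, and the endings that set codes of both genotypes share belong to what are treated as technical barcode sets, not paired samples.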
